A study of Plutella xylostella with 12 samples.

Results

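Th, the tyrosine hydroxylase gene of the diamondback moth Plutella xylostella, is 1 of 19364 features counted in these data. It was chosen by its identifier, LOC105380496, and not by a rule on measured values, though earlier results of these data were known. The deposited tables place it on scaffold NW_011952043, from 1073563 to 1081518 on the minus strand, as a single annotated transcript with 8 exons and 2273 bp of exon in a gene of 7956 bp. The symbol Th comes from the RefSeq gene table of the assembly ilPluXylo3.1. All 2870 gene reads of Th in these libraries (100%) mapped uniquely, so no read of Th is shared with another copy.

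Tyrosine hydroxylase turns tyrosine into DOPA, the first and rate-limiting step of dopamine synthesis. In the insect epidermis dopamine and its acyl derivatives are oxidized to quinones that harden and colour the cuticle, and in several insects the transcript in epidermis rises around moults. In Drosophila the gene is called pale, after the unpigmented cuticle of mutants, and it also marks dopaminergic neurons. In whole bodies, epidermal and neuronal transcripts are counted together, and fewer cells of a type cannot be told apart from less RNA per cell.

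RNA was taken from whole mid-fourth-instar larvae of a laboratory population started from a cabbage field in Queensland. All larvae grew at 25 °C on cabbage leaves until early in the third instar. One set was then moved to 10 °C and the other stayed at 25 °C, and each set was divided by sex, which gives 4 groups with 3 libraries each (female 10 °C, female 25 °C, male 10 °C and male 25 °C). Each library is a pool of 8 larvae, no group carries a transgene or a drug, and the labels give no age finer than the instar. The labels call the pools biological replicates, so the spread behind each p-value is that between pools. The title of the series asks whether the response to cold depends on sex.

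Libraries held from 10183278 to 30106219 gene reads. The sex labels of 2 cold libraries did not match 374 genes that are high in males at 25 °C, a set defined from the 25 °C libraries with earlier results known. Their median level, as a percent of that in the male 25 °C libraries, was 33.02 in the library labelled female 10 °C replicate 3 and 0.134 in that labelled male 10 °C replicate 3, against 0 to 2.12 in females at 25 °C. Female 10 °C replicate 2 was at 8.60. The level and share differences of Th that rest on 10 °C libraries are therefore also given without those labelled replicate 3, with some exceptions. That was not run under library-size scaling, on junction-free reads, for EcRA, or for the junction share within a sex or between the sexes. Genes with names typical of the main larval tissues were abundant in all libraries, such as the trypsin Tryp_SPc1 of the midgut (lowest TPM 2062) and the storage protein PxAry1 of the fat body (lowest TPM 2489). The nerve gene ace1, an acetylcholinesterase, had reads in 9 of 12 libraries. Ast-a, a neuropeptide gene also listed for nerve, had reads in all 12 (lowest TPM 3.33).

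Th had reads in every library, and pools of 3 of the 4 groups differed severalfold from each other on the deposited TPM scale. TPM divides by exon length and by the library's total. Th stood at 13.03, 10.9 and 15.1 in the female 10 °C libraries (replicates 1, 2 and 3). In the male 10 °C libraries it stood at 8.89, 3.02 and 17.1 TPM. In the female 25 °C libraries (replicates 1, 2 and 4) it was at 4.56, 12.2 and 2.33 TPM. In the male 25 °C libraries it was at 1.68, 13.3 and 1.40 TPM. The female 10 °C libraries lay close together, while in each other group 1 library held several times the level of the lowest. Every pair of groups overlapped. From 56.9% to 82.1% of all features had a lower TPM than Th in the same library.

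Group means of TPM were 13.01 ± 2.11 in females and 9.67 ± 7.07 in males at 10 °C, and 6.35 ± 5.16 in females and 5.45 ± 6.77 in males at 25 °C (SD, n = 3). No neighbouring pair in that order differed by more than the larger SD of the pair, whereas the female means at 10 °C and 25 °C lay further apart than either of their SDs, as did those of females at 10 °C and males at 25 °C. The order changed when counts were scaled with TMM factors, which correct for a few very abundant transcripts and ran from 0.588 to 1.65 in these libraries. The TMM-scaled CPM of Th, a read count relative to library size with no length term, were 21.7, 10.4 and 19.5 in females at 10 °C and 12.6, 7.002 and 22.2 in males at 10 °C. At 25 °C the female libraries held 10.7, 18.7 and 9.70 CPM, and the male ones 5.25, 40.0 and 4.36 CPM. The single highest library, male 25 °C replicate 2, thus belongs to the same group as the lowest ones.

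In that group the highest CPM was 9.19 times the lowest, against 1.93 in females at 25 °C, 2.09 in females at 10 °C and 3.17 in males at 10 °C. Counting error is small beside this. The 376 reads of male 25 °C replicate 2 give an exact 95% Poisson interval of 36.1 to 44.3 CPM, and the 54 reads of male 25 °C replicate 1 give 3.94 to 6.85 CPM. Such intervals cover counting error only. Group means of CPM were 17.2 ± 6.01 in females and 13.9 ± 7.67 in males at 10 °C, and 13.04 ± 4.92 in females and 16.5 ± 20.3 in males at 25 °C. Males were thus higher at 10 °C on the TPM scale and higher at 25 °C on the CPM scale, in both cases by less than the spread.

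**Figure D1:**
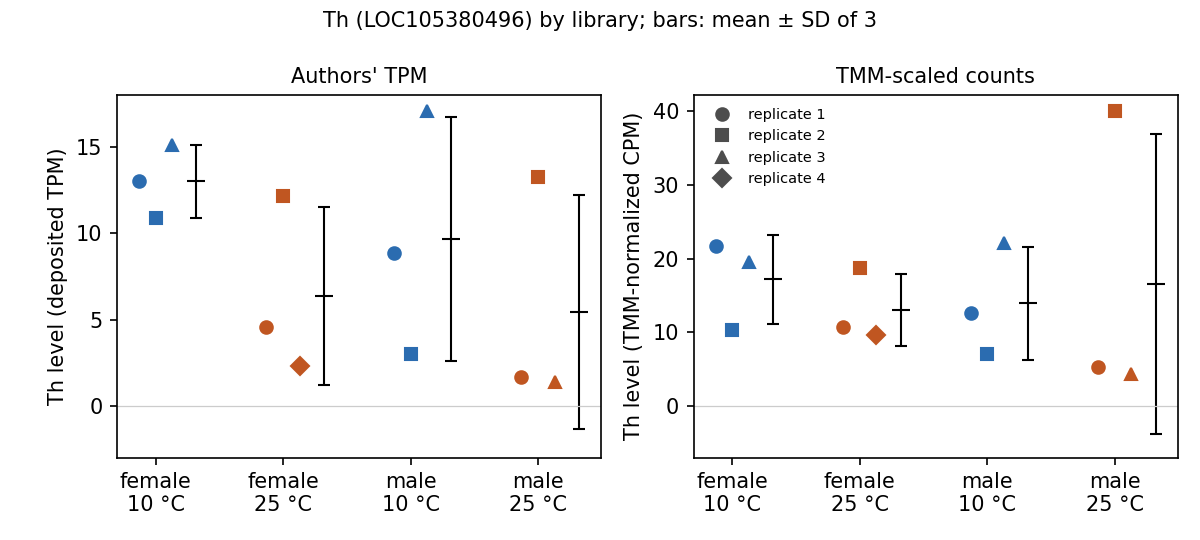
Level of Th in each library as the authors' TPM (left) and as TMM-normalized CPM (right), by sex and temperature; symbols mark the replicate number, and the bars beside them give the mean ± SD of 3 libraries. Male 25 °C replicate 2, at 13.3 TPM and 40.0 CPM, stands far above the other male 25 °C libraries, and all groups overlap on the CPM scale.

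Cold did not change Th past the threshold in either sex. In females, with the mean CPM given above, the log2 change was 0.40 ± 0.76 (SE; 95% interval -1.26 to 2.05; edgeR adjusted p = 0.766). Of 15027 genes tested, 6 (0.0399%) passed in that comparison, with 2587 at an unadjusted p below 0.05. The estimate is a level 1.32 times as high in the cold, and the interval spans both directions. Leaving out cold replicate 1 or 2 gave 0.19 or 0.66, and leaving out warm replicate 2 or 4 gave 0.75 or 0.21. Without both 10 °C libraries labelled replicate 3 the log2 change was 0.30 ± 0.87 (edgeR adjusted p = 0.872). DESeq2 called 742 genes here and gave Th 0.43 ± 0.79 (adjusted p = 0.736). The SE and interval of the main fit rest on a spread shared by all 12 libraries, males included. The female libraries fitted alone gave 0.40 ± 0.47 (edgeR adjusted p = 0.659). Leaving out male 25 °C replicate 2 gave the females 0.40 ± 0.49 (edgeR adjusted p = 0.646).

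In males the log2 change of Th was -0.24 ± 0.76 (95% interval -1.90 to 1.41; edgeR adjusted p = 0.829), in a comparison where 3 genes (0.02%) passed and 4813 had an unadjusted p below 0.05. The sign turned without either of 2 libraries. Without male 10 °C replicate 2 the log2 change was 0.15 ± 0.82 (edgeR adjusted p = 0.901). Without male 25 °C replicate 2 the log2 change was 1.55 ± 0.58 with an unadjusted edgeR p of 0.0223 and an adjusted p of 0.178. Over the alternatives other than refits of junction reads the adjusted p ran from 0.178 to 0.956. Without both 10 °C libraries labelled replicate 3 the log2 change was -0.74 ± 0.89 (edgeR adjusted p = 0.647). The male libraries fitted alone gave -0.18 ± 0.88 (edgeR adjusted p = 0.892).

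Averaged over both sexes, the log2 change of Th with cold was 0.08 ± 0.54 (95% interval -1.09 to 1.24; edgeR adjusted p = 0.923). Here 3453 genes passed, which is 23% of those tested, 13.7% higher and 9.31% lower in the cold, so Th was outside a large called set. The middle gene of all those tested had a log2 change of 0.23, above that of Th, and 55.5% of genes had a larger value. Without male 25 °C replicate 2 the change was 0.98 ± 0.38 (edgeR adjusted p = 0.0984), and without both 10 °C libraries labelled replicate 3 it was -0.22 ± 0.62 (edgeR adjusted p = 0.822). It was also below 0 without male 10 °C replicate 3 (-0.17), female 10 °C replicate 1 (-0.0248), male 25 °C replicate 1 (-0.0933) or male 25 °C replicate 3 (-0.11). Apart from refits of junction reads, the alternatives for this value had adjusted p from 0.0984 to 0.982.

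The size of the averaged change also depended on the scaling. With library size alone in place of TMM, a setting added after the data had been seen, Th had a log2 change of 0.67 ± 0.60 (edgeR adjusted p = 0.366). The same setting moved the median of all genes to 0.88, so that Th again lay somewhat below the middle of all genes. Within males the sign turned under this scaling, to 0.44 ± 0.85 (edgeR adjusted p = 0.716), beside a median of 0.78 over all genes.

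The difference between the sexes in the response of Th to cold, the comparison nearest to the question of the series, was 0.64 ± 1.07 on the log2 scale (females minus males; 95% interval -1.70 to 2.98; edgeR adjusted p = 0.958). No gene passed there in edgeR (0%), while 1351 had an unadjusted p below 0.05 and DESeq2 called 15. Without male 25 °C replicate 2 the difference was -1.16 ± 0.75 (edgeR adjusted p = 0.752), so the direction rests on that library. Without both 10 °C libraries labelled replicate 3 it was 1.03 ± 1.24 (edgeR adjusted p close to 1.00). The interval allows differences of several fold in either direction and does not show that the sexes respond alike.

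Between the sexes, Th at 25 °C had a log2 difference of females against males of -0.34 ± 0.76 (95% interval -1.996 to 1.32; edgeR adjusted p = 0.822). At 10 °C it was 0.30 ± 0.76 (95% interval -1.35 to 1.95; edgeR adjusted p close to 1.00). No gene passed in either comparison in edgeR (0% in both). At an unadjusted edgeR p below 0.05 there were 3369 genes at 25 °C and 120 at 10 °C, and the calls of DESeq2 numbered 2041 and 0. Without male 25 °C replicate 2 the 25 °C difference was 1.44 ± 0.58 (edgeR adjusted p = 0.246). At 10 °C the difference was -0.0287 without male 10 °C replicate 2, 0.80 without male 10 °C replicate 3, and 0.0973 when replicate 1 of the cold females was left out. The value was 0.70 ± 0.96 without both libraries labelled replicate 3 (edgeR adjusted p = 0.902). Fitted alone, the 25 °C libraries gave -0.27 ± 0.86 and the 10 °C libraries 0.29 ± 0.51 (edgeR adjusted p = 0.880 and 0.987). Of 232 alternative fits of these 6 comparisons, 0 called Th. The lowest edgeR or DESeq2 adjusted p was 0.0984 in 142 of them and 0.0555 in the other 90, which refit junction reads and are described further on.

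**Figure D2:**
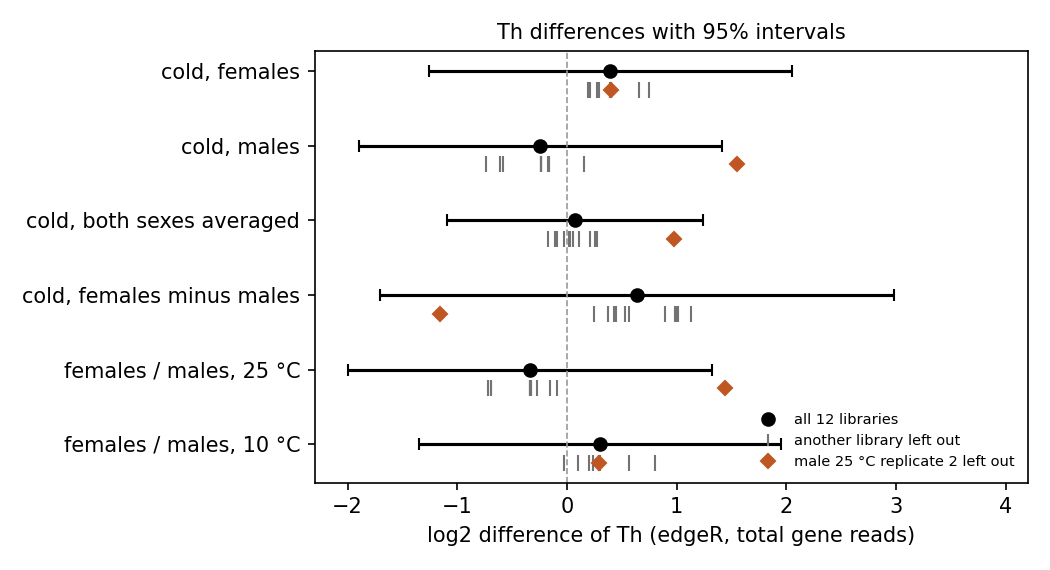
Log2 difference of Th in the 6 comparisons, from the edgeR fit of all 12 libraries (black points with 95% intervals) and with each library left out in turn (grey ticks and orange diamonds below). Every interval spans 0, and the orange diamonds show that leaving out male 25 °C replicate 2 moves the male cold change from -0.24 to 1.55 and the 25 °C sex difference from -0.34 to 1.44.

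The make-up of the reads of Th differed between temperatures even though the level did not pass. Each table splits exon reads into those that cross an exon-exon junction, which come from spliced RNA, and those that lie within an exon. In females at 10 °C, 174 of 412, 68 of 163 and 161 of 350 exon reads crossed a junction, which is 42.2%, 41.7% and 46.0%. In males at 10 °C it was 239 of 450, 39 of 105 and 140 of 342, which is 53.1%, 37.1% and 40.9%. Exact (Clopper-Pearson) 95% intervals in these 6 libraries lie between 27.9% and 57.8%.

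At 25 °C the share was lower in most libraries. In females it was 31 of 98 (31.6%, interval 22.6 to 41.8), 143 of 332 (43.1%, 37.7 to 48.6) and 8 of 77 (10.4%, 4.59 to 19.4). In males it was 3 of 54 (5.56%, 1.16 to 15.4), 95 of 376 (25.3%, 20.95 to 29.98) and 9 of 57 (15.8%, 7.48 to 27.9). All male 25 °C libraries lay below all libraries of 10 °C, and among females only replicate 2 of 25 °C reached their range. Male 25 °C replicate 2, which has the highest CPM of Th, still had a lower share than each 10 °C library.

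The mean junction share was 43.5% ± 5.48 at 10 °C and 21.95% ± 14.1 at 25 °C (SD, n = 6), a difference of 21.6 percentage points (two-sided p = 0.0108 in an exact permutation test; Benjamini-Hochberg adjusted over the junction and intron shares, p = 0.0216). This measure was taken up after the data had been seen. Among females alone the share was 43.3% ± 2.34 in the cold and 28.4% ± 16.6 in the warm (permutation p = 0.3, exact). Among males alone it was 43.7% ± 8.34 in the cold and 15.5% ± 9.86 in the warm (permutation p = 0.1, exact), where 3 libraries against 3 cannot give a smaller p. Between the sexes the share differed by -0.413 points at 10 °C and 12.8 points at 25 °C (females minus males; exact p = 1.0 and 0.3). Without both 10 °C libraries labelled replicate 3 the temperature difference was 21.6 points (exact p = 0.0381).

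A lower junction share at 25 °C was common to many genes of these libraries. Over the 4855 genes with more than 1 exon and at least 50 exon reads in each library, the library median lay between 47.1% and 64.3% in the cold and between 31.6% and 52.5% in the warm, with means of 53.999% ± 6.16 and 40.8% ± 7.29 (SD, n = 6), a shift of 13.2 points. The median over genes of each gene's own difference was smaller, at 6.39 points. Th had a larger difference than 90.2% of those genes, and 474 had a larger one than Th. The genes in this ranking were not matched for depth, and Th was near its floor, with 54 exon reads in male 25 °C replicate 1. Relative to the median of its library, Th stood at -10.5 ± 3.42 points in the cold and -18.8 ± 8.74 points in the warm, a difference of 8.35 points (exact permutation p = 0.0455). That smaller difference missed the threshold when any of 9 of the 12 libraries was left out (5.42 to 10.2 points over all 12, exact p up to 0.0909), and without both 10 °C libraries labelled replicate 3 (7.67 points, exact p = 0.124). Summed over all features, junction reads held 46.3% to 56.5% of exon reads in the cold libraries and 45.8% to 48.8% in the warm ones. Those ranges overlap, as do the ranges of the library median. The shift of 13.2 points is one of the library median, and the shift of the summed reads was not tested. The part that the shift of the library median has in the result for Th was not tested further.

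**Figure D3:**
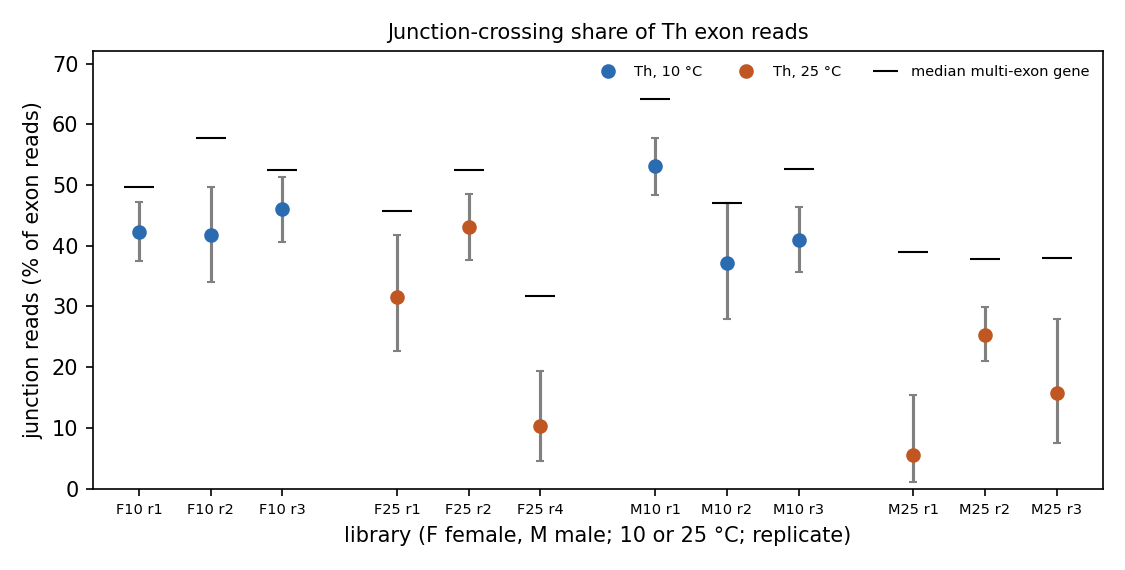
Percent of Th exon reads that cross an exon-exon junction in each library (points, blue at 10 °C and orange at 25 °C, with exact 95% intervals) beside the median over 4855 multi-exon genes of the same library (black dashes). Th lies below the median gene in all 12 libraries, at 37.1% to 53.1% at 10 °C and at 5.56% to 43.1% at 25 °C.

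Because the junction share moved, the level of Th was also compared on junction reads alone, a setting added after the data had been seen. Junction CPM were 17.5, 7.64 and 17.0 in females and 10.1, 5.73 and 17.0 in males at 10 °C. At 25 °C the female libraries held 7.08, 14.4 and 3.19, and the male ones 0.814, 26.5 and 1.92. Within warm males the highest library now held 32.6 times the lowest. The 10 °C libraries ranged from 5.73 to 17.5. Of the 25 °C libraries, the female ones at 7.08 and 14.4 lay within that range and the male one at 26.5 lay above it. The female library at 3.19 and the male ones at 0.814 and 1.92 lay below it. The averaged log2 change was 0.46 ± 0.70 (edgeR adjusted p = 0.611), where 27.9% of 11531 genes passed and the median gene had 0.49.

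On the same reads the change was 0.74 ± 0.99 in females and 0.17 ± 0.99 in males (edgeR adjusted p = 0.668 and 0.904), where 0.0347% and 6.56% of genes passed, the latter made up of 5.72% higher and 0.841% lower in the cold. Without male 25 °C replicate 2 the male value was 3.04 ± 0.90 (edgeR adjusted p = 0.12) and the averaged value 1.89 ± 0.56 (edgeR adjusted p = 0.0555). Without both 10 °C libraries labelled replicate 3 the averaged value was 0.15 ± 0.82 (edgeR adjusted p = 0.904), the female value 0.58 ± 1.15 (adjusted p = 0.811) and the male value -0.28 ± 1.17 (adjusted p = 0.889). Exon reads that cross no junction gave Th an averaged change of 0.12 ± 0.51 (edgeR adjusted p = 0.871; 23.2% of 11002 genes passed). By sex these reads gave 0.41 ± 0.73 in females and -0.18 ± 0.73 in males (edgeR adjusted p = 0.746 and 0.872), with 0.0182% of genes passing in each. None of these values passed.

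Intron reads, which can come from RNA that is not yet spliced, were few. In the 10 °C libraries Th had 9, 11 and 2 in females, and 9, 0 and 11 in males. Female libraries at 25 °C had 0, 12 and 0, and male ones 0, 0 and 0. Intron reads were thus present in 5 of 6 libraries at 10 °C and 1 of 6 at 25 °C. They were too few for the expression filter, so their level was not tested across genes.

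As a share of gene reads, introns held 2.14%, 6.32% and 0.568% in females at 10 °C and 1.96%, 0% and 3.12% in males at 10 °C. Female 25 °C replicate 2 held 3.49%, with an exact 95% interval of 1.82 to 6.01. The counts of 0 allow, at 3 reads, a share of up to 2.86% in male 10 °C replicate 2, 3.06% and 3.90% in female 25 °C replicates 1 and 4, and 5.56%, 0.798% and 5.26% in male 25 °C replicates 1, 2 and 3. In the libraries with few reads of Th an intron share like that at 10 °C was therefore not detectable, and only male 25 °C replicate 2 sets a limit below 1%. The mean share was 2.35% ± 2.25 at 10 °C and 0.581% ± 1.42 at 25 °C (two-sided p = 0.132 in an exact permutation test; adjusted over both shares, p = 0.132). The difference of 1.77 points became 2.02 points without both 10 °C libraries labelled replicate 3 (exact p = 0.181) and 0.975 points without female 10 °C replicate 2 (exact p = 0.264). Without female 25 °C replicate 2, the one 25 °C library with intron reads, it was 2.35 points (exact p = 0.026), the one omission of a single library that took p below 0.05. Over all genes introns held 4.23% to 8.25% of reads in the 10 °C libraries and 3.81% to 4.89% in the 25 °C ones. At each temperature female replicate 2 had the highest intron share, both over all genes and for Th. The part that the share over all genes has in the result for Th was not tested.

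The nearest gene to Th in the deposited table followed the male-high genes, and Th did not. LOC105380540 lies from 1066637 to 1071559 on the plus strand of the same scaffold, so that the genes face each other end to end with 2003 bp between them, and the tables give it no product name. It had 271, 315 and 269 reads in the male 25 °C libraries and 0, 0 and 0 in the female 25 °C libraries, and it is among the 374 male-high genes, a class these libraries themselves defined. At 10 °C it had 0, 14 and 129 reads in the libraries labelled female and 207, 167 and 0 in those labelled male. Th had from 54 to 459 reads in the same libraries, with no such gap. The gene on the far side, LOC105380497, starts 35820 bp away and had 12 to 255 reads, of which 308 of 944 over all libraries mapped uniquely.

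**Figure D4:**
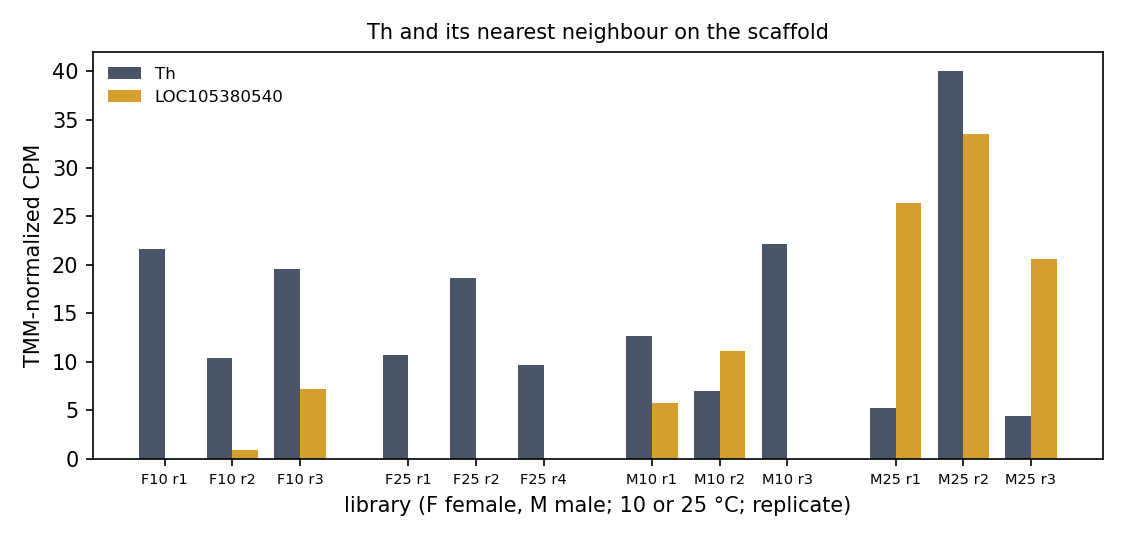
TMM-normalized CPM of Th (dark bars) and of its nearest neighbour LOC105380540 (yellow bars) in each library. The neighbour is near 20.6 to 33.5 CPM in males at 25 °C and at 0 in females at 25 °C, while Th is found in all 12 libraries at 4.36 to 40.0 CPM.

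Genes whose log2 CPM was most like that of Th over the 12 libraries are given as a description, since the points share depth and scaling. Among 15026 other tested genes, LOC105393894 had the highest correlation (Pearson r = 0.888, Spearman rho = 0.933) at 0 to 2.13 CPM, a level near that of single reads. LOC105395527 came next (r = 0.874, rho = 0.839). It was at 9.72, 51.95 and 5.58 CPM in male 25 °C replicates 1, 2 and 3, so the library with the highest CPM of Th was also its highest. The genes most opposed to Th were LOC105396263 (r = -0.891, rho = -0.951), at 2.77 to 9.10 CPM, and LOC105383854 (r = -0.848, rho = -0.888), at 16.6 to 35.7 CPM. Without the libraries farthest from the median of Th, male 25 °C replicates 2 and 3, these values of r were 0.838, 0.713, -0.812 and -0.809. None of these 4 identifiers has a symbol in the gene table used, as is so for nearly all LOC identifiers.

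Among 48 tested genes with a symbol other than Th, correlations were weaker. The highest were those of ace1 (r = 0.560, rho = 0.599), Glucl, a glutamate-gated chloride channel of nerve and muscle (r = 0.502, rho = 0.559), and actin of the cytoskeleton (r = 0.341, rho = 0.490). The lowest were those of the small heat shock protein gene hsp19.5 (r = -0.589, rho = -0.636), the neuropeptide gene Ast-a, which encodes allatostatin A (r = -0.551, rho = -0.503), and ND1, a mitochondrial NADH dehydrogenase subunit gene (r = -0.417, rho = -0.503). With 1 library left out in turn, r of actin ran from 0.218 to 0.777. Ast-a stood between 3.16 and 11.7 CPM in all libraries, and ace1 between 0 and 3.71 CPM. For the large majority of the 15026 other tested genes, r lay between -0.560 and 0.582. Among the genes with a symbol named here, only hsp19.5 lay outside that range.

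Other genes of the tanning pathway could not be set beside Th. Of 18895 LOC identifiers in these data, 39 had a symbol or synonym in the gene table. Of a list of dopamine and cuticle tanning genes, which names DOPA decarboxylase, GTP cyclohydrolase, ebony, tan, yellow and laccase among others, 1 was annotated by symbol, Th itself, and the others were not analysed here. Of the list of moulting and cuticle genes 1 was annotated, EcRA, an isoform name of the ecdysone receptor that reads the moulting hormone. In females it stood at 215 ± 107 CPM in the cold and 155 ± 52.7 CPM in the warm. In males it stood at 163 ± 17.7 and 134 ± 26.9 CPM. Its averaged log2 change with cold was 0.38 ± 0.27 (edgeR adjusted p = 0.284), and its correlation with Th over the libraries was weak (r = -0.155, rho = -0.0909).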

How the data were processed

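RNA-seq was made from 12 pools of whole larvae. Polyadenylated RNA went into NEBNext Ultra II libraries, read from both ends on a NovaSeq, per the labels' protocols. Not given in the sources used here: aligner, counter, genome build and strand use. Reads of overlapping or antisense genes therefore cannot be told apart. Per the file headers, the authors deposited whole-number read counts per gene (total, unique, exon, junction and intron), TPM, RPKM and the fraction of exon reads that are unique. Exon and intron counts summed to the total in 100% of entries.

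Total counts were tested with edgeR 4.0.16 in R 4.3.3 (TMM, a minimum count of 10 and total of 15, robust quasi-likelihood fit of 4 group means over all 12 libraries). Calls are Benjamini-Hochberg adjusted p below 0.05 over 15027 genes. SE is the log2 change over the root of F, and 95% intervals use its t quantile. In counts simulated for the averaged comparison, edgeR called 4 of 47 genes with a 2-fold change and 22 of 50 with a 4-fold change. At a 16-fold change it called 45 of 50. The simulation changed few genes, drawn at random, whereas 3453 passed in the real averaged comparison. Its rates therefore do not measure the power of the real comparison. Shares were tested with exact permutation tests (scipy 1.17.1). Alternatives were DESeq2 1.42.0, its size factors, no filter, exon, unique, junction and junction-free reads, library size alone, the replicate number as a block, exon-length offsets, compared groups alone and leaving out libraries. Genes named beside Th are the 2 highest and 2 lowest in correlation of log2 CPM (prior count 2), the 3 highest and 3 lowest with a symbol, list members and the nearest genes. Th, the lists and the tests were chosen with earlier results of these data known. No pair of libraries in a group agreed within counting error.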

Additional observations from a re-analysis of the deposited data

How the results depend on the processing

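Th was called in 0 of 232 alternative fits, but signs turned. In males the cold change became 0.0845 with a replicate block, 0.17 on junction reads and 0.44 with library size alone. The averaged change became -0.15 with exon-length offsets and -0.22 without both 10 °C libraries labelled replicate 3. Leaving out each library in turn gave log2 values from 0.19 to 0.75 in females, -0.74 to 1.55 in males, -0.17 to 0.98 averaged, -1.16 to 1.13 for the difference between the sexes' responses, -0.72 to 1.44 for sex at 25 °C and -0.0287 to 0.80 at 10 °C. It gave 0.975 to 2.35 points for the intron share and 18.3 to 25.8 points for the junction share. The causes were not tested. Deviations of same-numbered pools correlated from -0.739 to 0.573 across groups, and those of differently numbered pools from -0.493 to 0.578. The lowest value was that of both 10 °C libraries labelled replicate 3. These values do not settle whether the replicate numbers pair the libraries. The block moved the averaged count of called genes from 3453 to 20. That count was 5932 with DESeq2, 5654 with library size alone (5081 higher and 573 lower) and 8 without both replicate 3 libraries, and it ran from 55 to 5803 with single libraries left out. In females and males the counts of 6 and 3 became 742 and 3547 with DESeq2. In males it was 541 with the block, 1085 with the male libraries alone, 757 on junction reads and 36 with length offsets. At 25 °C the count of 0 for sex became 2041 with DESeq2, 592 in a fit of those libraries alone and 550 without both replicate 3 libraries. Intron reads of Th did not pass the filter, so the alternatives for their test were not run. Depth limits the shares most where Th had 54 to 98 reads.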
